A study of Mus musculus with 4 samples.

Results

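The proteins of the cytosolic ribosome were followed at the level of their mRNA in fasted and refed mouse liver. The genes were taken by name, as every non-control spot of the array whose gene symbol began with Rpl, Rps or Rplp followed by a digit, without the S6 kinases (Rps6k). The rule gave 85 of the 31829 gene symbols on the array, printed as 183 spots of 174 probes. All mice were male C57BL/6J animals 8 to 12 weeks old (the strain field reads C57/Bl6), and all had food removed for 24 h. The fasted group was taken then, and the refed group had food back for 2 h before the liver was collected. There were 4 livers in each group, each from 1 animal, and each fasted liver was paired at random with a refed liver on 1 of 4 Agilent two-colour arrays. On arrays 1 and 2 the fasted RNA carried Cy5, and on arrays 3 and 4 it carried Cy3. Every value below is a log2 ratio of fasted over refed, turned to that direction on all arrays, so a positive ratio means more of the mRNA after fasting.

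A ribosome is built from a small 40S and a large 60S subunit, each an RNA scaffold clothed in many different proteins that are needed in nearly equal number. The mRNAs of these proteins are among the most abundant of a cell, and most begin at their capped end with a C followed by a run of pyrimidines, the 5′ terminal oligopyrimidine tract or TOP. The tract lets the protein LARP1 hold the mRNA back from translation when the kinase complex mTORC1 is inactive, and insulin and amino acids after a meal activate mTORC1. Control of these genes by nutrients is therefore known chiefly at the level of translation, and total RNA on an array does not measure translation.

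The capped ends of some of the mRNAs are shown here because the TOP tract is the feature that the family is known for. Of the 75 measured subunit genes, 55 had an annotated start in the RefSeq promoter table used here (build GRCm38.p6), and 13 of them (23.6%) had a start at a C followed without a break by pyrimidines for at least 5 bases in all. The same was true of 3.01% of the 27025 genes in the table. The first 20 bases from these starts are given 5′ to 3′ on the strand of the gene, with the unbroken pyrimidine run in capitals.
Rplp2 (chr7:141447651-141447670, plus strand): CTTTCgccgccggacgccgc
Rpl14 (chr9:120571517-120571536, plus strand): CTTCTCgctgagcgccgcca
Rpl15 (chr14:18270967-18270986, minus strand): CTTCCTTTCCTCTggcggca
Rpl28 (chr7:4792965-4792984, plus strand): CTCTTTCCgtctccggccgc
Rpl35 (chr2:39005112-39005131, minus strand): CTCTTTCTCTCgaaccaggc
Rpl35a (chr16:33056482-33056501, plus strand): CTCTTTCCgccatcttggcg
Rpl38 (chr11:114668580-114668599, plus strand): CTTTCCCCgttctcttcggt
Rps6 (chr4:86857348-86857367, minus strand): CTCTTTTTCgtgacgcctcc
Rps10 (chr17:27635225-27635244, minus strand): CTTCCTTTCCagcctccgcc
Rps15a (chr7:118116128-118116147, minus strand): CTTCCCTCgccggtgagtga
Rps18 (chr17:33955646-33955665, minus strand): CTCTCTTCCacaggaggcct
Rps21 (chr2:180257379-180257398, plus strand): CTCCTgcccaatagtgctgc
Rps27 (chr3:90213629-90213648, minus strand): CCTTTCCggcggtgacgacc

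The runs were 5 to 13 bases long. An annotated start that is off by a base or more hides a tract, so a start without the run in this table says only that the letters are not at that position. The mean ratios of these 13 genes lay between -0.11 for Rpl35 and 0.12 for Rps27, with a median of -0.02, and those of the other 42 matched genes between -0.18 and 0.10, with a median of -0.06.

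The window of 250 bases before and 50 bases after the annotated start was also searched on both strands for short motifs. CCGGAA, the core of sites for ETS factors, was in 56.4% of the 55 genes and in 16.7% of all genes of the table. ATGGCG, the core of YY1 sites, was in 29.1% against 10.2%, and GGGCGG, an SP1 site, in 60% against 38.2%. TGACG, the short form of the cAMP response element, was in 50.9% against 23.0%. TATAAA was the exception, in 10.9% of the ribosomal protein genes and in 15.7% of all genes. The motifs can overlap, and a match describes the letters only.

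The family was bright on the arrays. Of the 174 probes, 166 passed the filter on dim probes, which asked for a signal well above background in the fasted or in the refed channel of all 4 arrays, and all 166 were well above background in both channels of all 4 arrays. Of these probes, 129 (77.7%) lay in the brightest 10% of all kept probes, and none was saturated or marked as an outlier. The filter kept 82 of the 85 genes, namely 29 genes of the 40S subunit, 43 of the 60S subunit, 3 of the P-stalk, 6 paralogs or like genes, and Rps19bp1, which encodes a binding partner of the Rps19 protein and of the deacetylase SIRT1 rather than a subunit. For each gene the brightest probe is given, and 52 of the 82 genes had at least 1 further kept probe.

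No ribosomal protein gene was called different between fasted and refed liver. The call asked for an adjusted p under 0.10 (limma, p-values of the 19721 kept probes adjusted together by the Benjamini-Hochberg method) and a ratio of at least 1.5-fold, which is 0.58 on the log2 scale. Of the 82 genes 0 were called higher and 0 lower, where 1.82% of all 16085 kept genes were called higher and 2.13% lower. Without the fold limit, 0 were higher and 1 was lower, against 4.96% and 6.32% of all genes. Rps19bp1, which is no subunit, was that gene. At the brightest probe of each gene, none of the 75 subunit genes passed and none had an unadjusted p under 0.05. Of the 82 genes 3 had such a p (3.66%), against 22% of all kept genes. Over all 166 probes of the family it was 7, against 4258 of the 19721 kept probes. Among the 7 were fainter probes of Rpl13a and Rpl30, both with a mean of -0.20, and neither passed after adjustment. The count of genes called with the fold limit was 0 in both directions under every alternative tried, including the rebuilt SAM test and the fit with a dye term.

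The loess curve sets each ratio against probes of similar brightness, so the values below are levels relative to other bright probes and not to the mRNA as a whole. The mean ratios of the 75 subunit genes ran from -0.18 for Rps26 to 0.12 for Rps27. The 95% interval of the mean lay inside 1.5-fold in both directions for 81 of the 82 genes (98.8%), against 82.5% of all kept genes. Rpl3 was the exception, with an interval from -0.61 to 0.27. The interval lay inside 1.25-fold for 55 of the 82 (67.1%), against 41.2% of all genes. Both counts depended on the centring. With each array centred on its median the intervals of 76 genes lay inside 1.5-fold and those of 4 inside 1.25-fold (4.88%, against 28.7% of all genes), and with no normalization within arrays those of 77 and 4. With the reported processing the median size of the mean ratio was 0.06 for the family and 0.11 for all genes, and the median SD over the 4 arrays was 0.17 and 0.19. Each array was centred on its own genes, so a change shared by all mRNAs of a liver would not be seen, and in a piece of liver fewer cells of a type cannot be told apart from less RNA per cell.

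**Figure D1:**
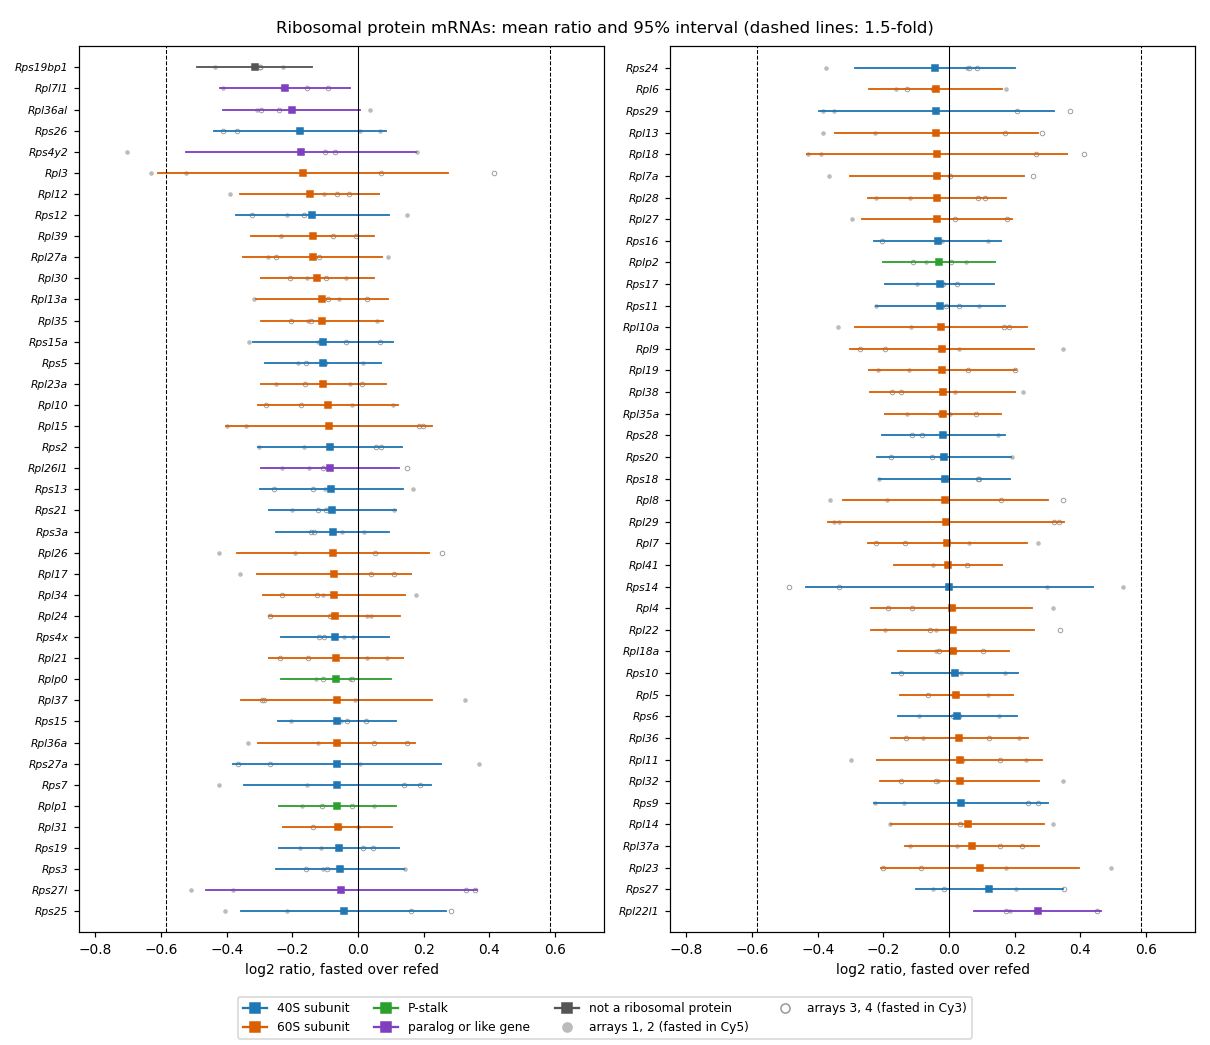
Mean log2 ratio of fasted over refed (squares) with its 95% interval (bars) for 81 of the 82 kept genes, ordered from lowest (top left) to highest (bottom right) and coloured by class. Small filled and open circles are the single arrays with fasted RNA in Cy5 and in Cy3, and dashed lines mark 1.5-fold. All intervals but that of Rpl3 stay between the dashed lines, and for many genes the filled and open circles fall on opposite sides of the mean.

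The plot of the genes shows that a majority of the means lay slightly below 0. Of the 82 means 66 were below 0 (80.5%), against 49.3% of all kept genes, and the median was -0.05. On arrays 1 to 4 the median over the 82 genes was -0.0025, -0.13, -0.05 and -0.01. With the reported processing the lean was largest on array 2. On that array 66 of the 82 genes were below 0, against 41, 50 and 42 on arrays 1, 3 and 4, and array 2 gave the lowest of the 4 ratios for 43 of the 82 genes (52.4%, against 25.7% of all genes). Without array 2 the median was -0.02 and 45 of 82 means (54.9%) were below 0. With median centring, with Agilent processed signals and with plain background subtraction the median of the family was below 0 on each of the 4 arrays, and 81, 75 and 76 of the 82 means were below 0.

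The size of this lean also depended on how the arrays were centred. With each array centred on its median in place of the intensity-dependent loess curve, the median of the family was -0.20 with 81 of 82 means below 0. The median over all kept probes was then -0.06, and the family minus all probes was -0.14, against -0.05 with the reported processing. With no normalization within arrays the family stood at -0.16 and all probes at -0.02. Where the loess curve was fitted without the ribosomal protein spots, the median was -0.05. With normexp background correction fitted on all spots it was -0.03, with 46 of 82 below 0. The sign of the median was negative under every alternative, from -0.20 to -0.02.

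**Figure D2:**
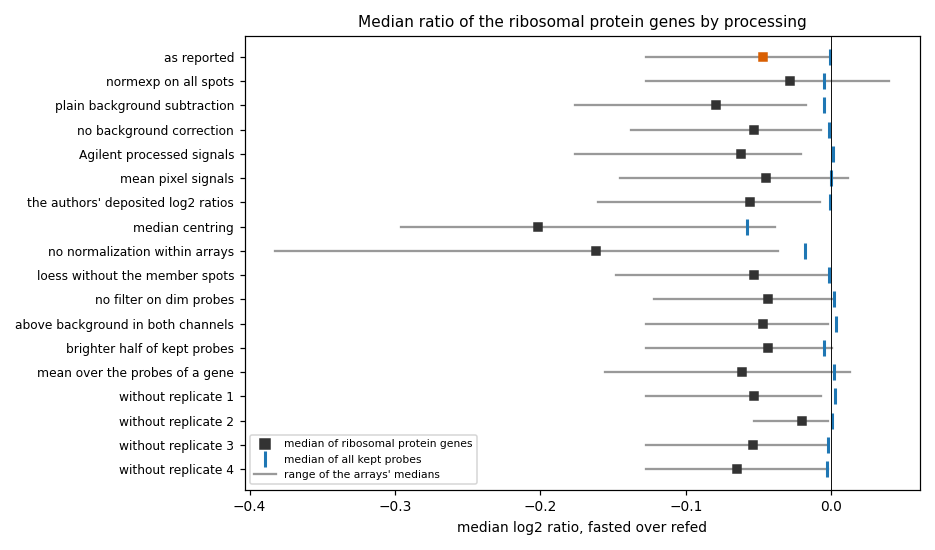
Median log2 ratio of the ribosomal protein genes under the reported processing (orange square) and under alternatives (dark squares), with the range of the array medians (grey bars) and the median over all kept probes (blue ticks). The family sits between -0.02 and -0.08 except with median centring (-0.20) and with no normalization within arrays (-0.16).

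The 40S subunit decodes the mRNA. Its 29 genes had means from -0.18 to 0.12 with a median of -0.05, 24 of them below 0, and with the reported processing all 29 intervals lay inside 1.5-fold. Rps26, a protein at the mRNA exit site, was the lowest, with ratios of 0.07, 0.01, -0.37 and -0.41 on arrays 1 to 4. Its mean was -0.18 with a standard error of 0.11 (adjusted p = 0.414, limma). The 2 arrays of each dye orientation were close to each other and the orientations were far apart. With a dye term in the limma fit the adjusted p was 0.0863, in a fit where 13.9% of all kept genes passed as lower.

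Rps27, a zinc-finger protein of the same subunit, was at the other end with 0.21, -0.05, -0.02 and 0.35, a mean of 0.12. Its adjusted p was 0.520 (limma). Rps6, the subunit protein that the S6 kinases downstream of mTORC1 phosphorylate, had ratios of 0.15, -0.09, 0.01 and 0.03. The mean was 0.03 with an interval from -0.16 to 0.21. Its 3 probes gave means between -0.13 and 0.03.

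Among the other low members of the 40S subunit, Rps12 had 0.15, -0.22, -0.32 and -0.17 and a mean of -0.14. Rps15a, at -0.12, -0.33, -0.04 and 0.07, had a mean of -0.11. Among the higher ones, Rps9, which helps to keep decoding accurate, had -0.14, -0.23, 0.24 and 0.27 and a mean of 0.04, so both arrays of one orientation were below 0 and both of the other above it. Rps29, named after its values were seen, had the same order of the orientations at -0.35, -0.38, 0.21 and 0.37.

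The 60S subunit joins amino acids and holds the exit tunnel. Its 43 genes had means from -0.17 to 0.10 with a median of -0.04, 33 of them below 0. Rpl3, a protein near the peptidyl transferase centre, was the lowest with -0.52, -0.63, 0.07 and 0.41, and its SD of 0.49 was far above the median SD of the family. Rpl12, at the base of the stalk, had -0.10, -0.39, -0.06 and -0.03 and a mean of -0.15 (adjusted p = 0.404, limma). Its adjusted p was 0.0923 with median centring. Both kept Rpl12 probes map to chromosome 10, whereas the RefSeq gene is on chromosome 2.

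Rpl39, a small protein of the exit tunnel, had -0.24, -0.24, -0.08 and -0.01, below 0 on all 4 arrays, and a mean of -0.14. Rpl30, at -0.16, -0.04, -0.21 and -0.10 with a mean of -0.12, was also below 0 on all 4. Across the 75 subunit genes, 6 were below 0 on all 4 arrays and 0 were above 0 on all 4, against 15.7% and 14.1% of all kept genes. These counts take the brightest probe of each gene. Over all 166 probes of the family 29 were below 0 on all 4 arrays (17.5%, against 16% of all kept probes) and 2 above (1.2%, against 13.6%). Rpl10 had a mean of -0.09, Rpl27a of -0.14, Rpl13a of -0.11 and Rpl35 of -0.11.

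At the high end of the 60S subunit stood Rpl23, an activator of p53 when free of the ribosome, with 0.49, 0.17, -0.20 and -0.08 and a mean of 0.10. Its 2 arrays with fasted RNA in Cy5 were both above 0 and the other 2 below. Rpl37a was at 0.07, Rpl14 at 0.06, Rpl32 and Rpl11 at 0.03 each, Rpl36 at 0.03 and Rpl5 at 0.02. Fainter probes of some of these genes lay on the other side of 0. The second Rpl14 probe was below 0 on all 4 arrays with a mean of -0.15, the other two of Rpl11 were at -0.10 and -0.09, and the other two of Rpl23 were at -0.02 and -0.01. Rpl5 and Rpl11, which together with the 5S RNA bind the p53 ligase MDM2 when ribosome assembly fails, had intervals at their brightest probes from -0.15 to 0.19 and from -0.22 to 0.28.

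The P-stalk recruits the translation factors to the large subunit. Rplp0 had -0.02, -0.13, -0.02 and -0.11, Rplp1 had 0.05, -0.17, -0.02 and -0.11, and Rplp2 had -0.07, 0.05, -0.11 and 0.01. Their means were -0.07, -0.06 and -0.03, and with the reported processing all 3 intervals lay inside 1.25-fold. Their dye effects were between -0.01 and 0.02, close to 0.

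Paralogs and like genes of the subunit proteins held the highest ratio of the family and the next lowest after Rps19bp1. Rpl22l1, whose level the Rpl22 protein is known to hold down, had 0.27, 0.18, 0.17 and 0.45, above 0 on all 4 arrays. Its mean was 0.27 with a standard error of 0.08 and an adjusted p of 0.112 (limma), so it did not pass. It passed in limma with a dye term (adjusted p = 0.0486) and in the rebuilt SAM test (q = 0.0695), while with median centring its mean was 0.12 and its adjusted p 0.508. Its partner Rpl22 had -0.04, -0.19, -0.06 and 0.34 and a mean of 0.01.

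Rpl7l1, a like gene of Rpl7 with a part in building the large subunit, had -0.23, -0.41, -0.15 and -0.09, below 0 on all 4 arrays. Its mean was -0.22 and its adjusted p 0.184 (limma), or 0.0605 with a dye term and 0.0461 with Agilent processed signals. Rpl7 had 0.27, 0.06, -0.22 and -0.13 and a mean of -0.01. Rpl36al, a retained copy of Rpl36a, had 0.04, -0.31, -0.30 and -0.24 and a mean of -0.20 (adjusted p = 0.248, limma, and 0.0671 with median centring), and Rpl36a a mean of -0.06.

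Rps27l, a target gene of p53, had -0.38, -0.51, 0.36 and 0.33 and a mean of -0.05, with both arrays of one orientation below 0 and both of the other above it. Rps4y2, now listed by RefSeq as the transcribed pseudogene Rps4l, had -0.70, 0.18, -0.07 and -0.10. Its mean was -0.17 and that of Rps4x -0.07. The Rpl26l1 probe, whose gene name RefSeq lists as a synonym of the pseudogene Rpl26-ps4, had a mean of -0.08. Paralogs are close in sequence, and the arrays could not be checked for cross-hybridisation between them.

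The 3 genes that the filter left out were paralogs with a known bias to testis or muscle. Rpl3l, a muscle form of Rpl3, and both probes of Rpl10l were not well above background in either group. Rpl39l, the testis form of Rpl39, was well above background on 2 arrays in each group, with ratios of 2.15, 1.41, -0.76 and -0.62. Both arrays with fasted RNA in Cy5 were above 0 and both others below it, so no direction between the groups can be read from this probe.

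Rps19bp1 had -0.23, -0.43, -0.30 and -0.30 and was lower in the fasted liver on all 4 arrays. Its mean was -0.32 with a standard error of 0.07 and an adjusted p of 0.0617 (limma). Its interval of -0.49 to -0.14 lay inside 1.5-fold, but not with median centring or with no normalization within arrays. The adjusted p was 0.0982 without array 1, but 0.187 without array 2, 0.217 without array 3 and 0.177 without array 4. With Agilent processed signals it was 0.139, and Rpl7l1 was the 1 gene of the family that passed.

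With the reported processing, the ratios within the family differed more by dye orientation than by feeding state. The part of the ratio that turned sign with the dyes is the dye effect, given as log2 Cy5 over Cy3. The dye effect had a median size of 0.105 in the family and of 0.107 in all kept genes. It was larger in size than the mean ratio in 57 of the 82 genes (69.5%, against 46.7% of all kept genes), and in 32 genes the 2 arrays of each orientation shared a sign opposite to that of the other 2 (39%, against 23.8% of all kept genes). Over the 166 probes it ran from -0.47 (a probe of Rps12) to 0.41 (Rps14). The test of the dye effect called 6 of the 166 probes brighter in Cy5 and 21 brighter in Cy3, where 7.32% and 7.43% of all kept probes were called.

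Arrays correlated by orientation as well. Over the 166 probes the ratios of arrays 1 and 2 correlated at r = 0.59 and those of arrays 3 and 4 at r = 0.80, whereas pairs of opposite orientation lay between -0.62 and -0.46. Over all 19721 kept probes the same figures were 0.66, 0.75 and 0.22 to 0.40. These are correlations across probes of the same 4 arrays, and probes are not independent replicates. The mean over 2 arrays of each orientation cancels a dye effect, and the residual spread that it leaves in a fit without a dye term widens the intervals given above.

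**Figure D3:**
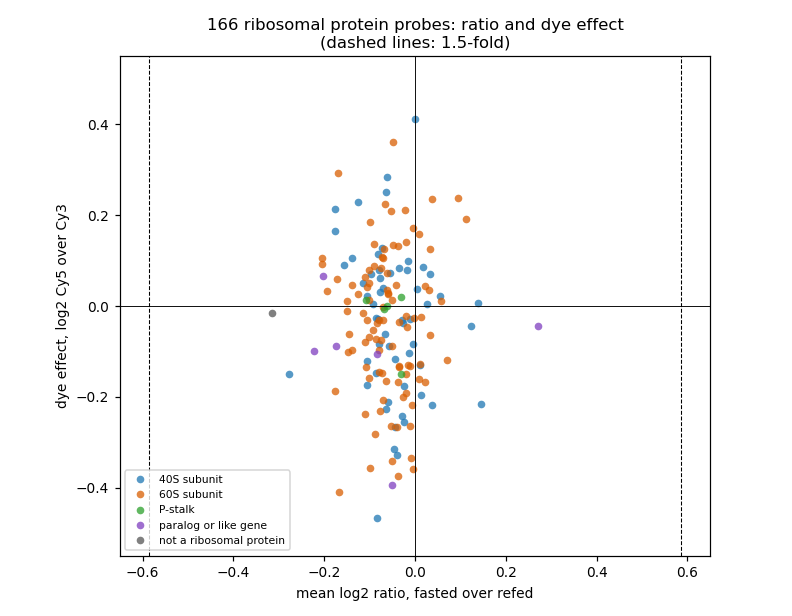
Mean log2 ratio of fasted over refed (horizontal axis) against the dye effect, log2 Cy5 over Cy3 (vertical axis), for the 166 kept probes, coloured by class, on equal scales with dashed lines at 1.5-fold. The cloud is tall and narrow: dye effects reach from -0.47 to 0.41 while the mean ratios stay between -0.32 and 0.27.

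Probes of the same gene agreed in the mean ratio more closely than in the dye effect. In the 52 genes with at least 2 kept probes, the median distance between the highest and the lowest probe was 0.07 for the mean ratio and 0.18 for the dye effect, and in 43 of the 52 the dye effect had the wider range. Rpl36 had the widest range of the dye effect, from -0.36 to 0.24, with means between -0.0046 and 0.04. The probe of Rpl36 at -0.36 maps to the X chromosome and not to chromosome 17, and in all 9 of the 165 probes with a position on both sides mapped to another chromosome than the RefSeq gene of that name, in 6 genes. Only chromosomes were compared, so probes on a copy elsewhere on the same chromosome are not counted and the 9 are a minimum. Ribosomal protein genes have many processed pseudogenes, so such probes could bind the parent mRNA, a copy, or both.

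Probes that cross an exon junction bind spliced RNA, and 4 of them, the 2 with the lowest and the 2 with the highest dye effect, are shown as the ends of its range among such probes. They were taken from 33 of the 35 kept probes whose target spans over 100 bases of the mm9 genome, and the other 2 were not considered. The sequences are printed 5′ to 3′ as deposited, with T in capitals.
Rps12 (chr10:23505428-23505711, minus strand): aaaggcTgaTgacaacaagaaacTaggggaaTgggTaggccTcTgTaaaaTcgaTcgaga
Rpl3 (chr15:79908489-79908772, minus strand): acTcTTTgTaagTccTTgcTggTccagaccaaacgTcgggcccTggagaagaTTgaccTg
Rps15 (chr10:79755554-79756394, plus strand): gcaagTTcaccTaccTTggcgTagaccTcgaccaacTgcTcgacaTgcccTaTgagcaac
Rpl31 (chr1:39425070-39426887, plus strand): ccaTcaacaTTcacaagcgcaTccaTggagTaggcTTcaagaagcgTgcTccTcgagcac

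The Rps12 probe had a dye effect of -0.47 and the Rpl3 probe of -0.41, with mean ratios of -0.08 and -0.17. The Rps15 probe had 0.17 and the Rpl31 probe 0.19, with mean ratios of -0.18 and -0.10. The other Rps12 probe, which is brighter, had a dye effect of 0.11. Across the 166 probes the number of T bases correlated with the dye effect at r = 0.31, against 0.20 over all kept probes, which describes probes and not samples. The 4 printed probes hold 10, 15, 12 and 11 T bases in the order given and do not follow that trend.

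The other genes of the ribosome and its making were read from lists. Of the 4 subunit genes whose names the rule does not catch, none passed. Fau, which encodes a fusion of a ubiquitin-like protein and a 40S protein, had a mean of 0.06, Rpsa of -0.05, and Gnb2l1 (now Rack1), a signalling scaffold on the 40S subunit, of -0.02. These are the brightest probes. The fainter Rpsa probes were lower, at -0.07, -0.13 and -0.22, and did not pass either. Among 17 other TOP mRNAs, 1 passed as lower without the fold limit (5.88%, against 6.32% of all genes). That gene was Eef1g, an elongation factor subunit, at -0.27 (adjusted p = 0.0728, limma), and it lost the call without any 1 of the 4 arrays.

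Of 12 kept genes for the mTORC1 control of TOP translation, 1 passed in each direction (8.33%, against 4.96% of all genes higher and 6.32% lower) and the median was 0.075. That median was 0.04 without array 3, 0.02 without array 4 and 0.0032 with normexp fitted on all spots, and it turned to -0.04 with median centring, so it gave no settled direction. Mlst8, a subunit of the mTOR complexes, had -0.45, -0.58, -0.48 and -0.54 and a mean of -0.51 (adjusted p = 0.0163, limma), and it passed without each array in turn. Tsc1, a brake on mTORC1, had 0.45, 0.28, 0.44 and 0.28 and a mean of 0.37 (adjusted p = 0.0445, limma), and it lost the call without any 1 of the 4. Larp1 itself had 0.70, 0.08, -0.05 and -0.29 and a mean of 0.11. Of the 7 kept factors of ribosomal protein promoters, Max, the partner of Myc, was the 1 that passed, at -0.42 (14.3% against 6.32% of all genes lower), and it lost the call without array 2, 3 or 4.

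Genes that make ribosomes, rather than form them, held 8 that were lower in the fasted liver. Of 39 kept biogenesis genes 8 passed as lower and 0 as higher (20.5% against 6.32% of all genes), 33 means were below 0 and the median was -0.16, or -0.24 with median centring. Nop2, an rRNA methyltransferase, had -0.35, -0.84, -0.74 and -0.93 and a mean of -0.71, and Rrp9, a component of the U3 particle, had -0.54, -0.40, -0.84 and -0.80 and a mean of -0.65. Both were called with the fold limit (adjusted p = 0.0212 and 0.0213, limma), and Rrp9 lost the call without array 3. Nop56, Nop58 and Wdr12 passed without the fold limit at -0.57, -0.54 and -0.46, and lost the call, Wdr12 without array 3 and the other two without array 2, 3 or 4. The count that passed as lower was 9 without array 1, 3 without array 2, 1 without array 3 and 4 without array 4, 0 with normexp fitted on all spots, and 17 with a dye term (43.6%, against 13.9% of all genes in that fit), which also had 2 higher (5.13%, against 13%).

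Of 14 kept chaperones and import factors of ribosomal proteins, 2 passed as lower, namely Grwd1, a histone and Rpl3 chaperone, at -0.53, and Kpnb1, importin beta, at -0.37 (14.3% against 6.32% of all genes). Grwd1 did not pass without array 3, nor Kpnb1 without array 2, 3 or 4. Of 74 kept mitochondrial ribosomal protein genes, 11 passed as lower and 0 as higher (14.9% and 0%, against 6.32% and 4.96% of all genes), with a median of -0.07 and 56 means below 0. With median centring that median was -0.21 with 73 of 74 below 0, and with no normalization within arrays -0.17 with 72 below 0. Mrps6, at -0.65, was called with the fold limit, but without array 2 no gene of this list was. Mrpl15, at -0.54, passed without the fold limit, followed by Mrps12, Mrpl19 and Mrpl50 at -0.43, -0.40 and -0.38. Mrps12 did not pass without array 3 or 4, nor Mrpl19 and Mrpl50 without array 2, 3 or 4. The count that passed as lower fell to 5, 3, 2 and 2 without arrays 1 to 4 and to 0 with normexp fitted on all spots. Of 62 kept genes whose symbols begin with Eif or Eef and a digit, most of them initiation and elongation factors, 2 passed as higher and 5 as lower (3.23% and 8.06%, against 4.96% and 6.32% of all genes). The higher ones were Eif1, which helps to select the start codon, at 1.08, and Eif2c4, an Argonaute and no initiation factor, at 0.47, which did not pass without array 3 or 4. The lower ones were led by Eif2ak3, the kinase PERK, at -0.83, which did not pass without array 4. Eef1e1, Eif1a and Eif2b4 were at -0.61, -0.53 and -0.52, and Eef1e1 did not pass without array 3, nor the other two without array 2, 3 or 4. The count that passed as lower was 4, 2, 1 and 1 without arrays 1 to 4 and 0 with normexp fitted on all spots. The lists overlap in some factors, and the difference between them and the ribosomal proteins was not tested.

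**Figure D4:**
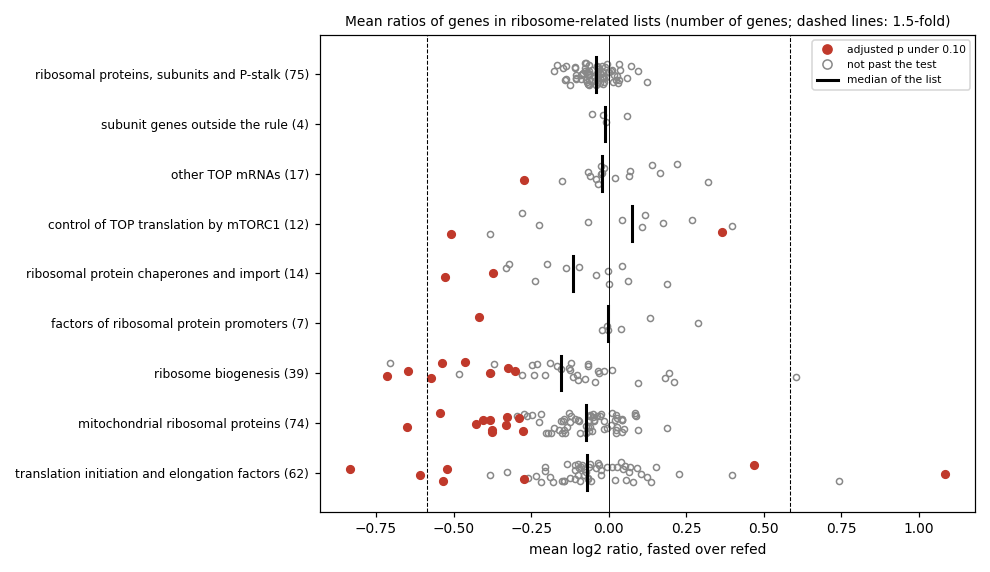
Mean log2 ratio of fasted over refed for each gene (circles) of the 75 subunit genes and of 8 ribosome-related lists, with the number of kept genes in brackets, list medians as black bars, genes with an adjusted p under 0.10 in red and dashed lines at 1.5-fold. The subunit genes form the narrowest of the long lists and hold no red point, while the biogenesis and mitochondrial ribosomal protein lists hold 8 and 11 red points, all below 0.

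Cell type markers were read the same way. All 7 hepatocyte markers were kept, with means from -0.14 (Ttr) to 0.84 (Tat), and 2 passed as higher (28.6%, against 4.96% of all genes). They were Tat, called with the fold limit but not without array 1, 2 or 3, and Cps1 at 0.31. The 5 kept immune markers of 7 had means from -0.03 to 0.16 and none passed. Of the 3 kept endothelial and stellate markers of 4, Stab2 passed at 0.35 (33.3%, against 4.96% of all genes higher), and Lrat was at -0.36 and Pecam1 at 0.11. Cps1 and Stab2 each lost the call whichever array was left out. All 4 kept markers of pancreatic acinar cells of the 10 listed were low on array 3 alone, with Clps at -5.05 and a list median of -3.37 there, against -0.01 to 0.05 elsewhere. Of the 5 blood markers, 4 were higher on both arrays 1 and 3 than on the other 2, and Slc4a1 was highest on array 3, with list medians of 2.08, -0.26, 2.37 and 0.26 on arrays 1 to 4. The medians of the ribosomal protein genes on those arrays, -0.0025, -0.13, -0.05 and -0.01, were also lowest on array 2, and the part of blood or pancreas RNA in them was not tested. Without array 3 the median of the family was -0.05.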

How the data were processed

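Total RNA (200 ng) of each liver was labelled by the authors with Cy3 or Cy5, hybridised as pairs of 1 fasted and 1 refed liver to 4 Agilent arrays with 60-base probes, and scanned. The deposited scanner files hold spot and background intensity values from Agilent Feature Extraction, not yet normalized within limma. A second table holds log2 ratios that the authors made by loess normalization in limma, already turned to fasted over refed; its background step is not given in the sources used here, and it served as an alternative.

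Median spot intensities were corrected with normexp (offset 50), leaving out 55 spots with a local background above 3 times the array median, normalized by loess within each array with control spots at weight 0, and turned by the dye labels (limma 3.58.1, R 4.3.3). The study's methods name print-tip loess and a SAM test at a 10% false discovery rate and 1.5-fold. Here lmFit and eBayes were used on the log2 ratios with the same limits, and SAM was rebuilt with the 16 sign flips of 4 arrays as an alternative. Spots of a probe were averaged, and of a gene's probes the brightest was taken. Of 39429 probes, 19721 were kept. The dye effect came from a second fit with the orientation as a term. The steps were tested on simulated data. The number of arrays and the dye effect, which the main fit leaves in the residual spread, limit the precision, and each ratio carries the pair of livers on that array.

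The members, lists and markers were chosen with earlier results of these data known. Genes named are the 10 highest and 10 lowest subunit genes, paralog pairs, the P-stalk, Rps6, subunit genes outside the rule, and of each list up to 5 genes past the test. Rpl26l1, Rpl31, Rps14, Rps15, Rps24, Rps29 and Larp1 were named after their values were seen. Gene names are those of the array, matched to RefSeq (GRCm38.p6); probe positions are mm9, from the files. Start sequences are from RefSeq. Values of some single genes are not reported here.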

Additional observations from a re-analysis of the deposited data

Results flagged for a closer look

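Over the 4 arrays, 137 genes and list medians were scanned for a value that stood apart from the other 3, and 3 did so by more than the 95% limit of Dixon's ratio for 4 values, where chance gives about 1 in 20. Among the 82 ribosomal protein genes it was 1, Rps24, a 40S protein, with 0.05, -0.37, 0.06 and 0.09 on arrays 1 to 4 and a gap of 0.932 of its range to array 2. Grwd1, a chaperone of Rpl3, had -0.35, -0.59, -0.58 and -0.59, with a gap of 0.962 to array 1. The median of the pancreatic acinar markers was 0.05, -0.01, -3.37 and 0.04, with a gap of 0.983 to array 3.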

How the results depend on the processing

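The test on the 4 ratios was already paired by array, because each ratio sets a fasted against a refed liver on 1 array. No second set of samples shares the numbers. With at least 1.5-fold, 0 ribosomal protein genes were called under all alternatives. Without the fold limit, 0 passed as higher and 1 as lower in the reported fit. With a dye term 1 passed as higher (1.22%) and 3 as lower (3.66%), against 13% and 13.9% of all kept genes in that fit. In the rebuilt SAM test 1 passed as higher, and with median centring 3 passed as lower. With normexp on all spots, with plain background subtraction and at an adjusted p under 0.05, 0 passed as lower. Leaving out 1 array gave 0 to 1 lower. The median of the family, -0.05, became -0.20 with median centring and -0.16 with no normalization within arrays, and lay between -0.07 and -0.02 when 1 array was left out. Over all kept probes, 335 were called higher and 410 lower; this was 5 and 14 with normexp on all spots, 550 and 714 with plain subtraction, 686 and 904 with Agilent processed signals, 230 and 635 with median centring, 247 and 527 with no normalization within arrays, 99 and 132 at 2-fold, and 208 and 256 without array 3. Each interval is for a level relative to probes of similar brightness; inside 1.25-fold it held for 55 of the 82 genes, but for 4 with median centring and 4 with no normalization within arrays.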
